A study of Mus musculus with 8 samples.

Results

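The peaks around the 4 clustered Zic genes of the mouse, Zic1, Zic4, Zic2 and Zic5, were taken from chromatin immunoprecipitation sequencing (ChIP-seq) of the transcription factor OTX2. Peaks were taken by position, as every peak of the 8 libraries whose centre lay in 1 of 2 windows of the mm9 genome build. The 4 genes were chosen with earlier results of these data known, which limits how p-values and shares below can be read. The Zic1/Zic4 window ran from 90950000 to 91590000 on chromosome 9, with the genes near 91.25 to 91.29 Mb. The Zic2/Zic5 window ran from 122560000 to 123180000 on chromosome 14, with the genes near 122.86 to 122.88 Mb. These gene intervals came rounded from the rule that set the windows and not from an mm9 annotation, so counts inside them and distances to them are approximate. The windows held 34 of 26317 peaks of the series, 11 in the Zic1/Zic4 window and 23 in the Zic2/Zic5 window.

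All libraries came from wild-type CD-1 embryos at E12.5 (embryonic age in days), with septum and basal ganglia primordia (the medial and lateral ganglionic eminences) dissected together and pooled over embryos. There were 3 libraries precipitated with an antibody against OTX2, 3 libraries of input chromatin with no antibody and 2 libraries precipitated with normal goat IgG, which the third experiment omitted. In replicates 1, 2 and 3 the authors listed 1848, 1298 and 22325 OTX2 peaks, against 138, 142 and 235 peaks in the input lists and 149 and 182 peaks in the IgG lists. The authors gave each peak a place and a rank in its own list, and no height, so read depth is unknown. Both libraries of the third experiment carried a tag in their names that the other 6 lacked, whose meaning is not given and which may stand for other peak-calling settings. OTX2 replicate 3 had wider peaks (median 827 bp, against 191 and 182 bp in replicates 1 and 2). Input replicate 3, with the same tag, did not (median 143 bp, against 151.5 and 151 bp in input replicates 1 and 2). The part of settings and depth in its larger number of peaks was not tested, and results that several libraries share are also given without replicate 3. Septum and eminences were not separated, so binding in septal cells and in eminence cells cannot be told apart, and no expression was measured in these libraries.

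Zic genes encode zinc finger transcription factors of early neural development. Zic1 and Zic4 lie side by side and in opposite orientation, as do Zic2 and Zic5. Zic genes are expressed along the dorsal midline and in the septum, the medial part of the subpallium. Zic2 is needed for the forebrain midline, and in humans loss of ZIC2 function is a known cause of holoprosencephaly, a failure of the forebrain to divide. Zic5 acts in neural crest and neural tube closure, and Zic4 acts with Zic1 in the cerebellum. OTX2 is a homeodomain factor of the anterior neural plate that binds DNA carrying TAATCC. The study asked how OTX2 acts on MGE patterning and on septal identity.

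The upstream sequences of the genes are shown because OTX2 can bind near a start site, and because replicate 3 listed peaks inside both gene intervals. They are the 250 bases before the start site (RefSeq, GRCm38.p6, written 5′ to 3′ along the gene's own strand). No peak was placed on them, because they belong to another build than the peaks.
Zic1 (chromosome 9, minus strand): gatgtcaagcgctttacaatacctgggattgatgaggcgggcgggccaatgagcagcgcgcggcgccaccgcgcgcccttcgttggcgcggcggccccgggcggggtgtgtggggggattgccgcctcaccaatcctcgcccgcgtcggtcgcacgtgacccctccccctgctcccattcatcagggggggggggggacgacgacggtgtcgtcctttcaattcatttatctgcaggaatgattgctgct
Zic4 (chromosome 9, plus strand): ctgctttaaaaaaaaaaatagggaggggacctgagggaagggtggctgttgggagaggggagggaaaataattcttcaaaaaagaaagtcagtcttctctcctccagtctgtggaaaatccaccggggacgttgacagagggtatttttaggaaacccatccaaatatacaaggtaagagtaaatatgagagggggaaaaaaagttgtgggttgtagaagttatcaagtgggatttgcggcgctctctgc
Zic5 (chromosome 14, minus strand): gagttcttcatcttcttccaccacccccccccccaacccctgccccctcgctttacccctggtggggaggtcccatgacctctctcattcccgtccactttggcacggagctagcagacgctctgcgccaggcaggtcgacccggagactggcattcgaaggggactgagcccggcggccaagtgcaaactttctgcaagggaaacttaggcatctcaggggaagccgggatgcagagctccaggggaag
Capitals would mark TAATCC or its reverse GGATTA, and none appear because 0 of these 3 promoters held either, with the 50 bases after the start also searched. Over all 32851 promoters of the same length, 7.06% held TAATCC on either strand. The shorter core TAATC was in 0 of the 3 promoters and in 22.0% of all promoters. Zic2 was not matched to a promoter. The absence of these letters concerns these windows of 300 bases only.

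The first comparison asked whether OTX2 antibody peaks were listed at the Zic genes where control chromatin had none. Every OTX2 library had peaks in the windows and no control library had any. Over both windows, OTX2 replicates 1, 2 and 3 held 2, 2 and 30 peaks, against 0 in each of the 3 input and 2 IgG lists. OTX2 and control libraries did not overlap over both windows together, and replicate 3 stood far above the other OTX2 libraries. Counts of 0 in the controls were usual. Any control peak was in 11.7% of genome stretches as long as the Zic1/Zic4 window and 11.5% of those as long as the Zic2/Zic5 window. The share of such stretches with the same separation of OTX2 and control libraries was not counted. The mean was 11.3 ± 16.2 peaks (SD, n = 3) in OTX2 libraries and 0 in all 5 control libraries (two-sided exact permutation test over libraries, p = 0.0357, the smallest p that 3 against 5 allow). Against the 3 input libraries alone p was 0.1, the smallest that 3 against 3 allow. With the replicate number as a block the p against all controls was 0.25 (exact sign-flip test), the smallest that 3 pairs allow, and without replicate 3 the exact permutation p was 0.133.

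These tests cannot tell whether OTX2 and control lists differ per listed peak, because the control lists were short. At the OTX2 shares of listed peaks in the windows, the control lists would have held between 0.149 and 0.362 peaks each. Counts of 0 in lists this short therefore cannot show a lower share than in the OTX2 lists. In lists of 138 to 235 peaks, 0 peaks in the windows allow a share of up to 1.28% to 2.17% of a list. The OTX2 lists had 0.108%, 0.154% and 0.134% of their peaks in the windows in replicates 1, 2 and 3, with exact 95% intervals of 0.0131 to 0.390%, 0.0187 to 0.555% and 0.0907 to 0.192%. The shares of the OTX2 libraries thus lay within each other's intervals, although replicate 3 listed 30 peaks there and replicate 1 listed 2. Of tiles as long as the Zic1/Zic4 window laid end to end along the genome, 11.7% held a peak of any control list, and of tiles as long as the Zic2/Zic5 window 11.5% did. The control peak nearest to a window lay 1.59 Mb before the Zic1/Zic4 window and 2.33 Mb before the Zic2/Zic5 window.

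**Figure D1:**
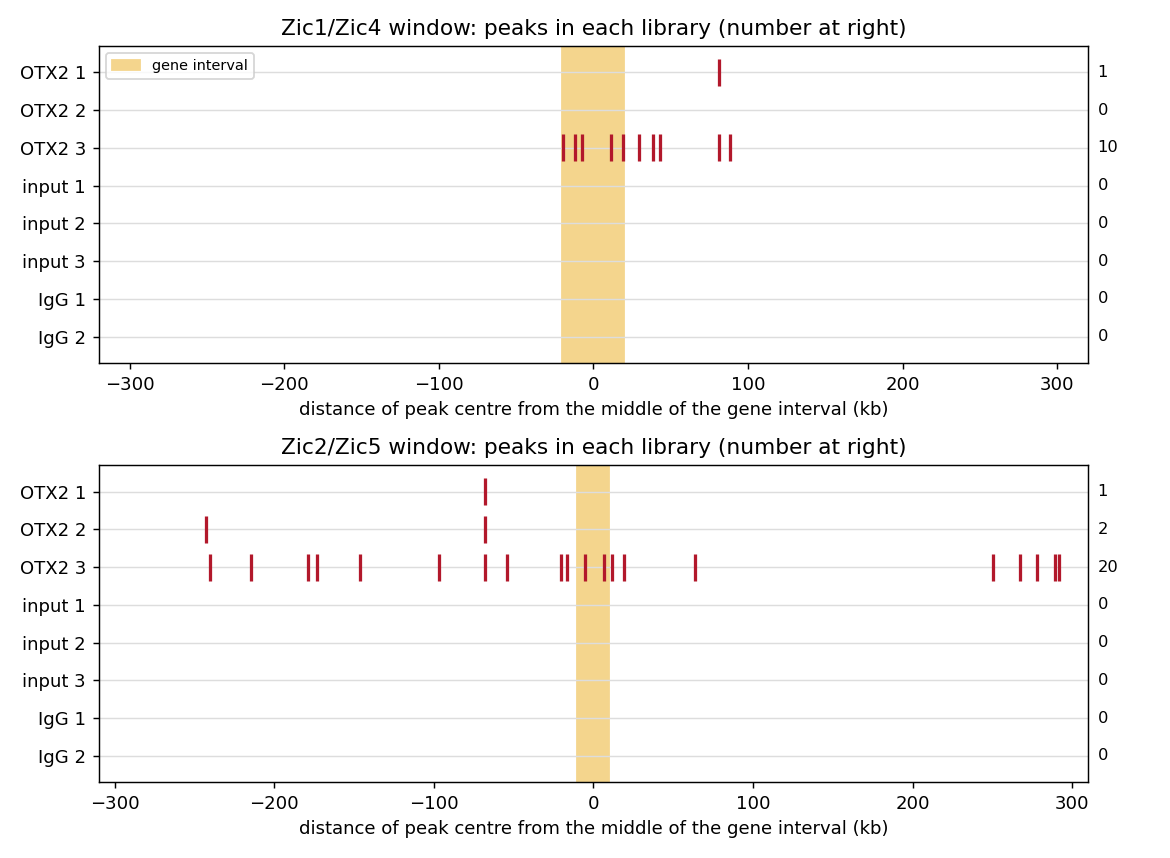
Peak centres (vertical marks, not drawn to peak width) in each of the 8 libraries across the Zic1/Zic4 window (top) and the Zic2/Zic5 window (bottom), against distance in kb from the middle of the gene interval (shaded). The 10 replicate 3 peaks of the Zic1/Zic4 window lie in and to the right of the genes, the 20 of the Zic2/Zic5 window lie on both sides, and the control rows are empty.

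Both loci held 1 site that more than 1 OTX2 library listed. Such a site, called an OTX2 region here, was a group of overlapping peaks from at least 2 of the 3 OTX2 lists with no control peak on it. The Zic2/Zic5 region was the one found in all 3 libraries. It lay 57.8 kb before the gene interval, at chr14:122801908-122802562. Replicate 1 listed it from 122802076 to 122802235 (160 bp, rank 1631), replicate 2 from 122802087 to 122802235 (149 bp, rank 973) and replicate 3 over the whole 655 bp (rank 1257). The narrow peaks of replicates 1 and 2 ended at the same base and shared 149 bp with each other and with replicate 3. Their centres and that of replicate 3 spread over 79.5 bp. The rank was low in the list of replicate 1 (percentile 88.3, where 0 is best), low in that of replicate 2 (75) and near the top of that of replicate 3 (5.63).

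The Zic1/Zic4 region lay 61.5 kb after the gene interval, at chr9:91351035-91351936. Replicate 1 listed 226 bp of it, from 91351360 to 91351585, with rank 742 (percentile 40.2). Replicate 3 listed the whole 902 bp with rank 803 (percentile 3.60), its best-ranked peak in either window. The 2 centres lay 13 bp apart. Replicate 2 listed no peak in the Zic1/Zic4 window, so without replicate 1 or without replicate 3 this window held 0 OTX2 regions. Among the OTX2 regions that replicate 1 listed, the Zic1/Zic4 region was number 685 of 1588 by rank and the Zic2/Zic5 region number 1489. Among those that replicate 3 listed, they were numbers 744 and 1058 of 1944. Replicate 2 placed the Zic2/Zic5 region at number 901 of its 1155.

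The 2 regions came from 31 merged intervals in the windows (6.45%), against 8.61% of all 22629 merged intervals of the genome, so the share was near the background. A window of this length with at least 1 region was common, with 30.5% of tiles as long as the Zic1/Zic4 window and 29.6% of tiles as long as the Zic2/Zic5 window. The windows held 1.59 regions per Mb, against 0.762 per Mb over the genome, a ratio of 2.08. The ratio rests on 2 regions and was 2.67 without replicate 3, when 1 region remained in the windows.

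Agreement between libraries was also counted peak by peak. Replicate 3 overlapped both replicate 1 peaks of the windows, where 87.9% of all replicate 1 peaks were overlapped. Replicate 2 overlapped 1 of the 2, where 43% of all replicate 1 peaks were. Of the 2 replicate 2 peaks, replicate 3 overlapped 1, against 92.1% of the list, and replicate 1 overlapped 1, against 61.6%. The replicate 2 peak that neither shared lay at 122627131 to 122627295 with rank 1268 of 1298, and the nearest replicate 3 peak (rank 11022) began 2.39 kb further along. Of the 30 replicate 3 peaks, 2 were found in replicate 1 or 2 (6.67%, exact 95% interval 0.818 to 22.1%), against 8.83% of the whole list. Without replicate 1 it was 1 of 30 (3.33%), against 5.25% of the list. With 2 to 30 peaks none of these shares can be told from the background.

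Most replicate 3 peaks of the windows were therefore seen in that library alone, and their ranks differed. Among its best-ranked 1298 peaks, as many as the shortest OTX2 list held, replicate 3 had 3 peaks in the windows. Of those, 2 were found in replicate 1 or 2, against 83.4% of the best-ranked 1298. Of the 27 ranked lower, 0 were found (allowing up to 12.8% by the exact 95% interval), against 4.22% of the lower-ranked peaks of the list. With all OTX2 lists cut to 1298 peaks the windows held 1, 2 and 3 peaks in replicates 1, 2 and 3. Cut to equal length the libraries thus differed by at most 2 peaks.

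The well-ranked exception lay in the Zic1/Zic4 gene interval. A replicate 3 peak from 91287592 to 91291320 had rank 1174 and a width of 3729 bp, and neither replicate 1 nor replicate 2 had a peak on it. It was the widest peak of either window, and 0.520% of replicate 3 peaks were at least as wide. The next best-ranked peaks of this window found in replicate 3 alone were from 91308410 to 91309258 (rank 5863), 18.8 kb after the gene interval, and from 91298528 to 91300174 (rank 8058), 9.35 kb after it.

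The 10 replicate 3 peaks of the Zic1/Zic4 window stood together. They spanned 109 kb, from 91249602 to 91358553, with 299.6 kb of the window before them and 231 kb after them free of replicate 3 peaks. By their centres, 5 of them lay in the gene interval and the other 5 after it, but the peaks from 91249602 and from 91287592 reached across its rounded edges. Besides the wide peak, those in the gene interval had ranks of 8269, 8298, 12496 and 20919. Gaps between neighbours had a median of 6.55 kb, against 46.7 kb between neighbouring replicate 3 peaks over the genome. Of all runs of 10 consecutive replicate 3 peaks, 0.664% were as short or shorter. These runs share peaks, and their number of peaks and span were taken from this window, so the share is a description only. By number of peaks, 19.3% of tiles of the same length held at least 10 replicate 3 peaks, and so did 25.7% of the tiles on chromosome 9. The tiles had a median of 4 peaks.

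**Figure D2:**
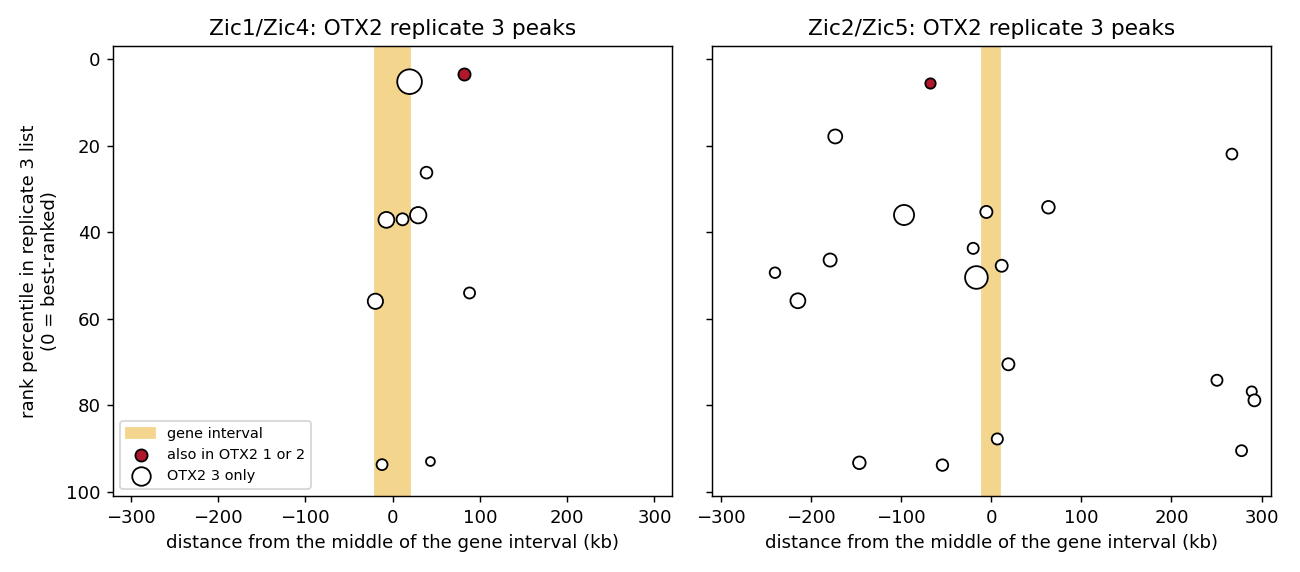
Rank percentile of each OTX2 replicate 3 peak (0 is best, at the top) against distance in kb from the middle of the gene interval (shaded) in the Zic1/Zic4 window (left) and the Zic2/Zic5 window (right), with symbol area proportional to peak width. The 2 filled peaks, at percentiles 3.60 and 5.63, were also listed in replicate 1 or 2, and the large open symbol at 5.26 is the peak of 3729 bp in the Zic1/Zic4 gene interval.

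In the Zic2/Zic5 window replicate 3 had more peaks, spread more widely. Of the 20, 10 lay before the gene interval, 2 inside it and 8 after it. They spanned 533 kb, from 122629685 to 123162479, with a median gap of 12.9 kb. At a spacing of at most 50 kb they formed 2 groups, 186 kb apart. The first had 15 peaks over 304 kb around the genes. The second had 5 peaks over 42.4 kb at the far end of the window, whose edge cut it. The next replicate 3 peak began 8.87 kb after the window, within 50 kb of the last of the 5. The 2 peaks in the gene interval, from 122864151 to 122865050 (rank 7890) and from 122876376 to 122877138 (rank 19595), had no partner in another library. The best-ranked peaks found in replicate 3 alone lay from 122696306 to 122697501 (rank 3998), from 123136747 to 123137476 (rank 4906) and from 122932983 to 122933957 (rank 7648).

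The number of peaks in the Zic2/Zic5 window was high for the genome. At least 20 replicate 3 peaks were in 1.51% of tiles of the same length and in 1.60% of those on chromosome 14, and the median tile had 4. Of all runs of 20 consecutive peaks, 3.03% were as short as 533 kb or shorter, again a description only, as the runs share peaks and were set by this window. The density was 32.3 replicate 3 peaks per Mb, against 15.6 per Mb in the Zic1/Zic4 window and 8.73 per Mb over the genome. In replicates 1 and 2 the Zic2/Zic5 window held 1 and 2 peaks, where the median tile had 0 in each list. At least 2 replicate 2 peaks were in 5.74% of tiles, and at least 1 replicate 1 peak in 28.6%.

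**Figure D3:**
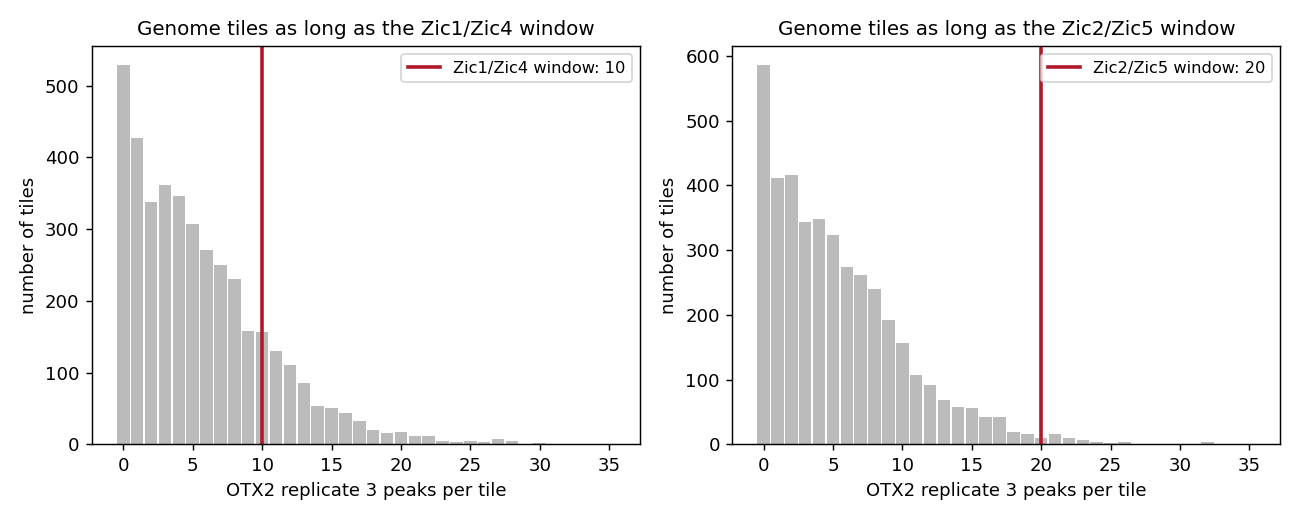
Number of genome tiles (vertical axis) by the number of OTX2 replicate 3 peaks they hold (horizontal axis), for tiles as long as the Zic1/Zic4 window (left) and the Zic2/Zic5 window (right). The red lines mark the windows, with 10 peaks where 19.3% of tiles held as many or more, and with 20 peaks where 1.51% did.

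Ranks in the windows ran over nearly the whole replicate 3 list, from 803 to 20943 of 22325. The best-ranked 25% of that list took in 5 of the 30 peaks (16.7%), where 25% is the share by construction. The median percentile was 37.1 in the Zic1/Zic4 window and 49.9 in the Zic2/Zic5 window. The outermost replicate 3 peaks of the Zic1/Zic4 window, of rank 12496 and 12068, lay 299.6 and 231 kb inside its edges. Those of the Zic2/Zic5 window, of rank 11022 and 17605, lay 69.7 and 17.5 kb inside its edges. Just outside, replicate 3 had a peak of rank 15910, which ended 14.2 kb before the Zic1/Zic4 window, and one of rank 18616, which began 8.87 kb after the Zic2/Zic5 window.

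Median widths of replicate 3 peaks were 890.5 bp in the Zic1/Zic4 window and 879 bp in the Zic2/Zic5 window, against 827 bp in the list. Peaks wider than 2000 bp made up 3 of the 30 (10%, exact interval 2.11 to 26.5%), against 4.5% of the list. This share cannot be told from the background, because the interval holds the share of the list. The 3 wide peaks were the 3729 bp peak of the Zic1/Zic4 gene interval and 2 peaks before the Zic2/Zic5 genes. One of these ran for 3149 bp from 122851994 to 122855142, its centre 6.43 kb before the gene interval, and had rank 11269. The other ran for 2468 bp from 122771991 to 122774458 and had rank 8047. When each peak was set against peaks of similar rank (the list cut in order into 10 equal parts), 11 of 30 were above the 90th percentile of width, against 10% of all replicate 3 peaks by construction. Of these 11, 5 were among the 10 peaks of the Zic1/Zic4 window and 6 among the 20 of the Zic2/Zic5 window. The 2 peaks shared with another library were on the other side, since their widths of 902 and 655 bp were under 959 bp, the 10th percentile of the best-ranked 10% of the list. This comparison was chosen after the widths had been seen and carries no test. Peaks of 1 library at 1 locus are not independent.

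**Figure D4:**
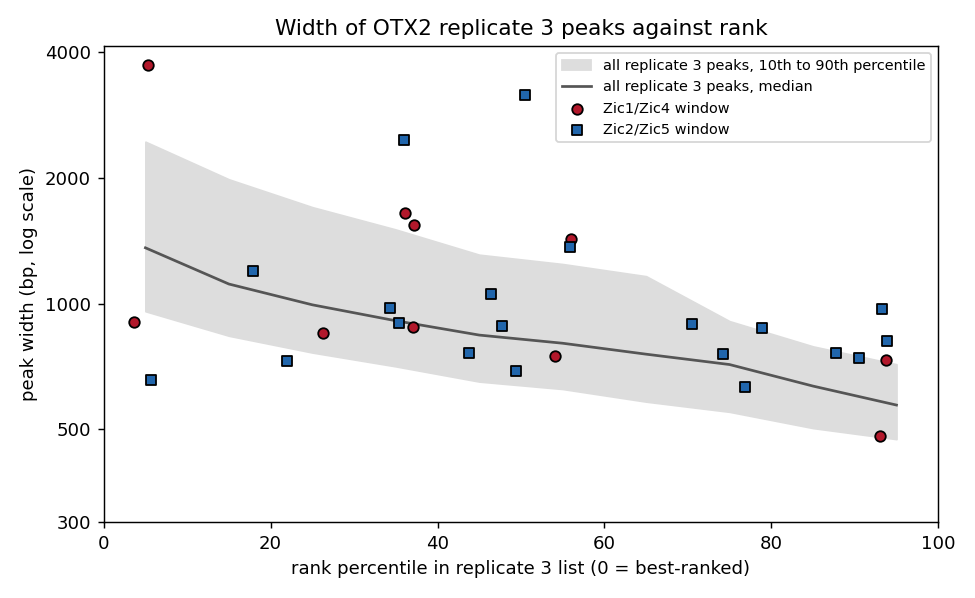
Width in bp (log scale) against rank percentile (0 is best) for the OTX2 replicate 3 peaks of the Zic1/Zic4 window (circles) and the Zic2/Zic5 window (squares), over the median (line) and the 10th to 90th percentile (grey band) of all replicate 3 peaks in steps of 10% of the list. Against their own 10% of the list, 11 of the 30 peaks were above the 90th percentile of width and 3 below the 10th. The drawn band joins the middles of these steps, so peaks near its edges can fall otherwise in the picture.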

How the data were processed

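The deposited values were positions and ranks of peaks, 1 list per library, so the authors called peaks per sample. Per the submitters' processing notes, BWA, MACS 1.4 and the build mm9 were used, in roles left unstated. The sources used here do not give the control, the threshold or the quantity behind the rank. Coordinates are mm9, written 1-based.

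Members and lists were chosen with earlier results of these data known. Peaks sharing at least 1 bp overlapped. Tiles were laid end to end from the lowest to the highest listed position of each of 20 chromosomes. Every OTX2 region was named, with the 3 best-ranked peaks of replicate 3 alone in each window, and other peaks were named after their values were seen. Intervals are exact Clopper-Pearson 95% intervals, a count of 0 allows 3 counts, and both cover counting error only. The labels do not say whether replicates came from separate litters, so p-values concern these libraries only. Each p is the smallest its design allows, so it reflects separation of the groups and their sizes, not the spread of counts. Deviations of same-numbered OTX2 and input libraries over 2644 bins of 1 Mb correlated with Pearson r of 0.139, 0.355 and 0.503 for replicates 1, 2 and 3. Of the pairs with other numbers, OTX2 replicate 2 with input replicate 1 had the highest r, 0.195, above that of replicate 1. The numbers were taken to pair the libraries, on this weak evidence and on the shared name tag of the third experiment. Overlap code was tested on simulated data. Python 3.11.15, numpy 2.4.6, scipy 1.17.1, pandas 2.3.3 and matplotlib 3.10.9 were used. Gene and promoter tables were GRCm38.p6 and coordinates stayed in their own build, so exons and introns were not annotated.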

Additional observations from a re-analysis of the deposited data

How the results depend on the processing

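The difference of 11.3 peaks between OTX2 and all controls fell to 2 peaks with OTX2 lists cut to 1298 peaks. Per 1000 peaks of a list it was 1.32 peaks. The exact permutation p stayed 0.0357 in both. As all control counts stayed 0, the unchanged p says nothing about stability. The difference lost the call with the replicate block (difference 11.3, exact sign-flip p = 0.25). Without any 1 replicate it also lost the call (differences of 2 to 16 peaks, exact permutation p from 0.133 to 0.2). Designs of that size cannot reach the threshold. The 2 OTX2 regions became 1 when all 3 libraries were required, 31 when any 1 sufficed, 1 in the better-ranked 50% of each list, 4 in windows of 2 times the length, and 1 to 2 with a replicate left out. Their density ratio of 2.08 was 2.57 with all 3 libraries, 2.79 with any 1, and 1.77 to 2.67 with a replicate left out. In the middle 50% of each window the ratio was 4.17 by construction, as the same 2 regions lay in fewer bases. The alternatives that moved a count of regions changed the number of libraries, peaks or bases by construction. The region lost in the better-ranked 50% was the Zic2/Zic5 region, the one found in all 3 libraries. Cut to 1298 peaks, the list of replicate 1 no longer held that region (rank 1631). With peaks reduced to 200 bp, the share of replicate 3 peaks found in replicate 1 or 2 was 6.67% in the windows, above the 6.39% of the whole list, where it was below 8.83% with full widths. Unknown read depth and unknown peak-calling settings limit every comparison between lists.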

Other observations

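The OTX2 region inside the Zic2/Zic5 window was ranked further down each list than the 2 regions that followed the window. The region inside had ranks 1631, 973 and 1257 in replicates 1, 2 and 3. A region from 123270489 to 123271976 on chromosome 14, its centre 91.2 kb past the window, had ranks 449, 194 and 284 in the same order, and a region from 123463789 to 123465665 had ranks 604, 67 and 304. In GRCm38 the protein-coding neighbours of the Zic5 and Zic2 pair are Clybl before it and Pcca after it, and no gene was assigned to these regions.

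The upstream sequence of Zic1 held 27 CG pairs in 250 bases, that of Zic5 held 11 and that of Zic4 held 4, against a median of 6 over all promoters. No methylation was measured here.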
